A study of Mus musculus with 27 samples.

Results

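Fatty acid oxidation genes and other known targets of the nuclear receptor PPARA were followed in the livers of 27 mice: 9 labelled Con, 9 labelled Veh and 9 labelled Dex. The set was a list of 34 genes, and every probe set that the array annotation assigned to one of them was read; the Cyp4a genes, which also respond to PPARA, were left out on purpose. Of the 34 genes, 30 had at least 1 probe set (41 probe sets in all), and 28 genes passed the filter on low values and were tested. Acot2, Hadha, Ucp2 and Acsl1 had no probe set with that single symbol and were not analysed here. Cd36, a fatty acid uptake receptor, and Acadvl, the very long-chain acyl-CoA dehydrogenase, were on the array but never rose above the median of any array, so neither was tested. The tested genes comprised 15 of the 17 listed mitochondrial genes, 7 of the 7 listed peroxisomal genes, and 6 genes of fatty acid hydrolysis, storage or other PPARA-driven functions. The array holds 8252 genes with a single symbol, of which 5200 had a tested probe.

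Each array carried RNA of 1 mouse liver on an Affymetrix mouse chip. The labels do not say what the group names stand for, nor do they give the strain, sex, age, dose or time of treatment, and no genetic change or shared treatment is named for any group. The series is titled as a set of liver treatments, and the comparisons asked how the livers of the groups differed. Because whole liver was measured, fewer cells of a type and less RNA per cell cannot be told apart.

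Fatty acids enter the mitochondrion as carnitine esters, which the carnitine palmitoyltransferases make and break and a carrier moves across the inner membrane. There, chain-length specific dehydrogenases, hydratases and thiolases shorten them, and the electron transfer flavoprotein passes the electrons on to the respiratory chain. Peroxisomes run a parallel pathway for long and branched chains. In mouse liver, PPARA, activated by fatty acids and by fibrate drugs, pairs with RXR on a direct repeat in DNA and drives many genes of both pathways, most visibly during fasting.

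Levels are given as log2 of the deposited intensity, and changes as differences of group means on that scale with their standard error; a gene passed when its limma p-value, adjusted by Benjamini-Hochberg over 6784 probes, was under 0.05. The median intensity of an array was 22.8 to 33.0 in Con, 17.6 to 30.7 in Veh and 18.4 to 33.3 in Dex. Signal at the 3' end of beta-actin over that at its 5' end, a measure of RNA integrity, was on average 1.27 ± 0.318 (log2) for Veh, above 0.947 ± 0.243 for Con and 0.886 ± 0.169 for Dex (SD, n = 9 each). Of 10 listed hepatocyte markers 9 were tested, with summed intensities of 46556 to 84943 in Con, 49822 to 97320 in Veh and 54618 to 133849 in Dex. Of these markers, 8 of 9 were higher in Dex than in Veh (median 0.31, 0 past the test), and 4 of 9 rose in Dex relative to Con (Alb, Apoa1, Cps1 and Tat; median over the 9 markers 0.51). All 11 tested macrophage markers, each read from its brightest tested probe set, were lower in Dex than in Veh (median -0.44, 0 past the test). Their sums were 925 to 3383 in Veh and 641 to 1708 in Dex, and 3 of 11 fell between Con and Dex. The second tested probe sets of Csf1r and C1qb were higher in Dex than in Veh, by 0.34 and 0.16 (limma, adjusted p = 0.574 and 0.784). Of all 6784 probes, 46.6% were higher and 53.4% lower in Dex than in Veh. Between Con and Dex, 3.26% of all probes rose and 13.2% fell. Of 8 adipocyte markers 2 were tested, and their summed intensity was 3270 to 6090 in Con, 4241 to 7674 in Veh and 568 to 6785 in Dex. Car3, which hepatocytes also express, differed by -1.15 ± 0.40 between Dex and Veh, with 8 of 9 Dex mice below the Veh median, and Lep by 0.15 ± 0.26 (limma, adjusted p = 0.162 and 0.808). A second, dimmer probe set of Lep differed by 1.06 ± 0.32, with 9 of 9 Dex mice above the Veh median (limma, adjusted p = 0.118). Adipoq, Retn and Fabp4 did not pass the filter. The part of these marker genes in the results was not tested.

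The direct repeat that PPARA and RXR bind was looked for in the stretch from 250 bases before to 50 after each gene's start (RefSeq, mouse build GRCm38.p6; 29 windows of 28 listed genes). The search used AGGTCA, 1 base of any kind and AGGTCA again, on both strands; the 2 repeat units do not overlap, and the middle base was not scored. With at most 2 mismatches it was found in 5 of the 29 windows (17.2%), against 1268 of 32851 windows of all genes (3.86%). With at most 3 mismatches the shares were 31% and 24.6%. A match is a run of letters and not a measured site. Crat, Acaa2, Hsd17b4, Vnn1, Decr1 and Angptl4 had no window here. The 5 matching stretches are shown because they are the places in this gene set nearest to the element for which the set is named; each is 30 bases, 5′ to 3′ on the gene's strand, with the aligned 13 bases in capitals.
Fabp1, chr6:71199804-71199833, plus strand: acaatcacTGACCTATGGCCTatatctgag
Cd36, chr5:17835938-17835967, minus strand: tggttctcTGGCCTCTGACTTacttggatg
Etfa, chr9:55512299-55512328, minus strand: gcacacccTTACCTTTGCCCTactcccaag
Plin2, chr4:86670263-86670292, minus strand: agctttcaGGACCCCTGACCTaagtcagac
Slc25a20, chr9:108662134-108662163, plus strand: ctgaatgtAGGTGAAAGGTCGgcggagccg

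The Fabp1 stretch had 1 mismatch and lay 67 to 55 bases before the start; the other 4 had 2 mismatches. In Fabp1, Cd36, Etfa and Plin2 the match was on the strand opposite to the gene. Only the Slc25a20 match, 7 to 19 bases after the start, lay downstream of it. None of the 4 tested genes among them passed the test in any comparison, and Cd36 was not tested. For contrast, the 250 bases before the start are shown for the 2 genes that rose in Veh, Ech1 and Eci1, and for Acadl, which fell in Dex relative to Con. The stretch of Acot1, which rose in Dex relative to Con and had 4 mismatches at best, is not shown. Capitals mark the best alignment in each stretch shown, with 4 mismatches in Ech1 and Eci1, a match that 79.8% of all windows hold, and 5 in Acadl.
Ech1, chr7:28825088-28825337, plus strand: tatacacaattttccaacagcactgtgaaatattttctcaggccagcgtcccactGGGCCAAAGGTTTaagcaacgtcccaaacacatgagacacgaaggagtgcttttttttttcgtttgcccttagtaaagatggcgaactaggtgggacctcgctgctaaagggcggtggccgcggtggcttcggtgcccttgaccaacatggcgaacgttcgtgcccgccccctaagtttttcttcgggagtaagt
Eci1, chr17:24426433-24426682, plus strand: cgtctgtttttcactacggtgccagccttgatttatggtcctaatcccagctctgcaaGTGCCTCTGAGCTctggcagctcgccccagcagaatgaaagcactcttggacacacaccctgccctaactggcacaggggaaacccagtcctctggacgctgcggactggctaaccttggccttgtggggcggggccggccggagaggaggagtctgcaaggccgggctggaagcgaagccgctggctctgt
Acadl, chr1:66863310-66863559, minus strand: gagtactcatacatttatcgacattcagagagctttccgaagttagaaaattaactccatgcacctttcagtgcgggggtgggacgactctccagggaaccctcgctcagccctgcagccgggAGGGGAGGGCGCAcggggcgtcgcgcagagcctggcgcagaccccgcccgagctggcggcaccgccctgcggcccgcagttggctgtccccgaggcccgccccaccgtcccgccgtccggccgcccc

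The level of each pathway in a mouse was summarised as the mean log2 intensity of its genes minus the mean of the 9 Con mice. The mitochondrial genes lay at 0 ± 0.142 in Con, 0.18 ± 0.0934 in Veh and -0.20 ± 0.285 in Dex (each SD from 9 mice). Veh mice covered 0.02 to 0.34 and Dex mice -0.69 to 0.12, so the groups overlapped. The peroxisomal genes lay at 0 ± 0.152 in Con, 0.49 ± 0.203 in Veh and 0.05 ± 0.416 in Dex. Among Veh mice the peroxisomal mean covered 0.13 to 0.88, against -0.14 to 0.27 in Con, and among Dex mice it ran from -0.67 to 0.79. Dex 5, Dex 4 and Dex 2 were the lowest mice of the series in both pathways, with mitochondrial means of -0.69, -0.47 and -0.44, while the peroxisomal mean of Dex 1 was second to that of Veh 5. The median intensities of these 4 arrays, 18.4 to 20.9, were the lowest of the Dex group, whose other arrays lay at 23 to 33.3.

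**Figure D1:**
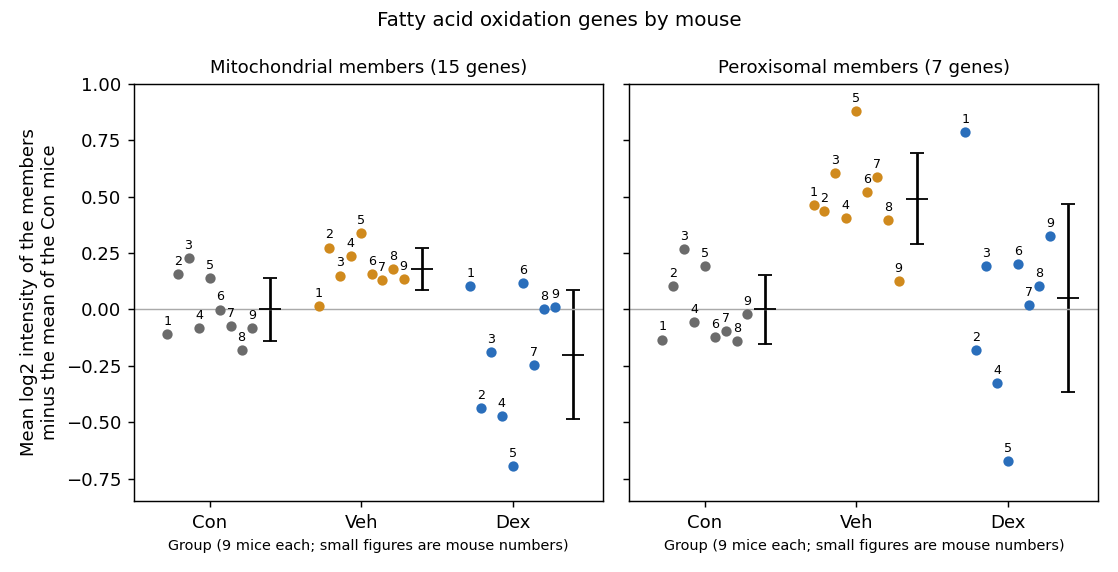
Mean log2 intensity of the mitochondrial (15) and peroxisomal (7) genes in each mouse, relative to the mean of the Con mice, with the group mean and SD (n = 9 each). Veh mice sit above most Con mice, most clearly for the peroxisomal genes (0.13 to 0.88 against -0.14 to 0.27), and Dex mice are the most scattered, with Dex 2, Dex 4 and Dex 5 lowest in both panels.

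Between Dex and Veh, 26 of the 28 genes had a lower mean in Dex, including 15 of 15 mitochondrial and 7 of 7 peroxisomal genes. Acot1 and Angptl4 were the exceptions. These counts read each gene from its brightest tested probe set, and the second probe sets of Crat, Acads, Etfb and Fabp1 were higher in Dex. The median difference was -0.37 over the 28 genes, -0.40 over the mitochondrial and -0.17 over the peroxisomal genes, against -0.03 over all 6784 probes, of which 53.4% were lower. No gene passed the adjusted test (limma; 0 of 28 in either direction, against 0.0442% of all probes higher and 0.221% lower). At an unadjusted p under 0.05, 12 genes (42.9%) were lower and 0 higher, against 8.34% and 6.82% of all probes. Without Dex 2, Dex 4 and Dex 5, the median over the 28 genes was -0.19 and that of the mitochondrial genes -0.20, again with 0 genes past the test. Leaving out Dex 6 let 3 genes pass as lower in Dex (Acaa1b, Decr1 and Ehhadh), leaving out Dex 9 let 2 pass (Acaa1a and Acaa1b) and leaving out Dex 1 let 1 pass (Hadh). In the same fits, the share of all probes called in either direction was 1.83%, 0.855% and 0.324%, against 0.265% with every mouse. The peroxisomal median was unstable, at -0.40 without Dex 1, -0.34 without Veh 9, -0.30 without Dex 3 and -0.13 without Dex 5, and at -0.32 in a fit that took the beta-actin ratio into account.

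Veh and Con differed the other way. In Veh, 22 of the 28 genes had a higher mean, with a median difference of 0.33, or 0.18 for the mitochondrial (11 of 15 higher) and 0.47 for the peroxisomal genes (6 of 7 higher). Over all probes the median was -0.19 and 30.1% were higher. Ech1 and Eci1 rose and no gene fell at the adjusted threshold (2 of 28 higher, against 1.19% of all probes higher and 2.67% lower). At an unadjusted p under 0.05, 12 genes were higher and 1 lower, against 5.44% and 18.1% of all probes. The 2 calls were lost with quantile normalization, with the beta-actin or the Gapdh ratio as a covariate, without Veh 2, Veh 4, Veh 5 and Veh 7, and on leaving out Con 1, Con 7, Veh 2 or Veh 5 alone; Ech1 alone passed without Con 6. Without Veh 9, 5 genes rose (Acaa1b, Ech1, Eci1, Etfb and Pex11a), a fit of Veh and Con alone called 9 and array weights 10, all higher in Veh. The share of all probes called in either direction moved with these counts, from 3.86% to 8.64% without Veh 9, 9.67% in the fit of Veh and Con alone and 17.1% with array weights. The median was 0.18 over the 28 and 0.082 over the mitochondrial genes with quantile normalization, and 0.11 over the mitochondrial genes with the beta-actin covariate.

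Relative to Con, the Dex group was split. In Dex, 12 genes had a higher and 16 a lower mean than in Con, with a median of -0.13 against -0.20 over all probes. Acot1 and Ech1 rose, and Acadl and Decr1 fell (2 higher and 2 lower of 28, against 3.26% of all probes higher and 13.2% lower). At an unadjusted p under 0.05, 4 were higher and 6 lower, against 6.96% and 24.6% of all probes. The median was -0.19 for the mitochondrial and -0.06 for the peroxisomal genes, and the latter turned sign when Dex 5 (0.16), Dex 2 (0.085), Con 5 (0.036) or Dex 4 (0.016) was left out and was -0.19 without Dex 1. Without Dex 2, Dex 4 and Dex 5 the medians were 0.08 over the 28 genes, 0.05 for the mitochondrial and 0.19 for the peroxisomal genes, and 2 genes passed, Acadl and Acot1; also 2 passed when Con 1, Dex 1, Dex 2 or Dex 4 was left out, and 1 (Acadl) without Dex 1, Dex 2 and Dex 3. The 3 comparisons share their arrays, so they are not independent of each other, and in none of them did any of the 28 genes have groups that did not overlap. Over all probes, the groups did not overlap for 0.0295% between Dex and Veh, 0.413% between Veh and Con and 0.767% between Dex and Con.

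**Figure D2:**
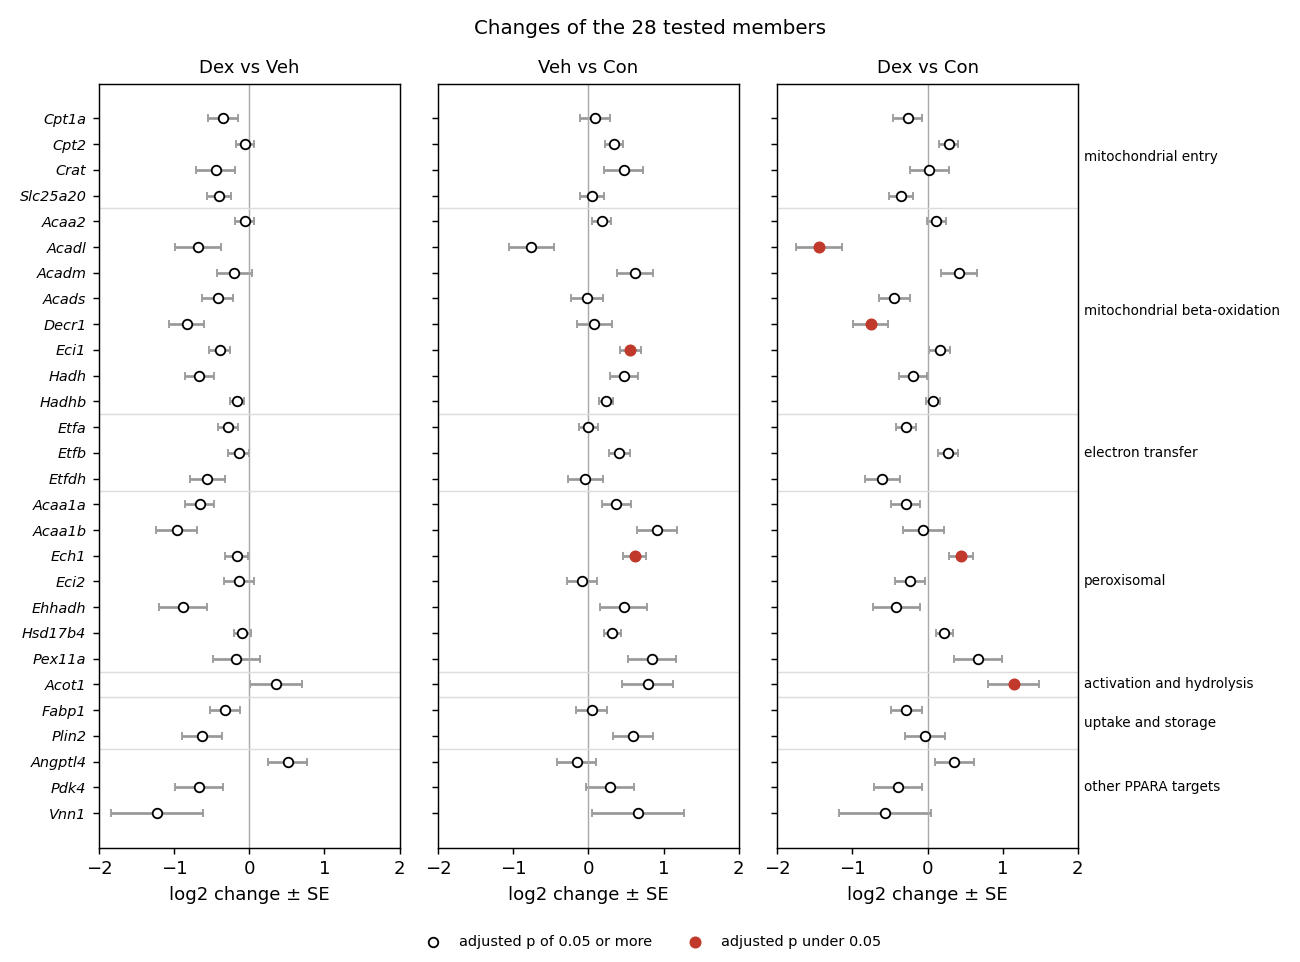
Difference of group means (log2) with its standard error for each of the 28 tested genes in Dex minus Veh, Veh minus Con and Dex minus Con, ordered by role; red points passed the adjusted limma test. Nearly all points lie left of 0 in Dex minus Veh (26 of 28) and most lie right of 0 in Veh minus Con (22 of 28). Dex minus Con holds the 2 genes that fell, Acadl and Decr1, and 2 that rose, Acot1 and Ech1.

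Of the genes for entry into mitochondria, none passed in any comparison. All 4 had a lower mean in Dex than in Veh and a higher mean in Veh than in Con. Slc25a20, the carnitine-acylcarnitine carrier of the inner membrane, ran from 8.41 to 9.06 in Con (median 8.85), 8.42 to 9.33 in Veh (median 8.82) and 7.77 to 8.89 in Dex (median 8.61). Dex 2, Dex 4 and Dex 5, at 7.77, 7.82 and 7.92, were the lowest mice of the series, and the groups overlapped. The difference between Dex and Veh was -0.41 ± 0.16 (limma, adjusted p = 0.213). Cpt2, the inner-membrane palmitoyltransferase, covered 9.48 to 10.05 in Con (median 9.73), 9.73 to 10.40 in Veh (median 10.11) and 9.54 to 10.45 in Dex (median 9.94). In Veh, 8 of 9 mice were above the Con median, and the difference was 0.34 ± 0.12 (limma, adjusted p = 0.103). Cpt1a, the outer-membrane enzyme that malonyl-CoA restrains, differed by -0.35 ± 0.20 between Dex and Veh (limma, adjusted p = 0.395) and by 0.09 ± 0.20 between Veh and Con (adjusted p = 0.813). For Crat, the carnitine acetyltransferase found in both organelles, these differences were -0.45 ± 0.26 and 0.47 ± 0.26 (limma, adjusted p = 0.407 and 0.268).

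Of the 8 mitochondrial beta-oxidation enzymes, 8 had a lower mean in Dex than in Veh and 6 a higher mean in Veh than in Con; Acadl and Decr1 fell in Dex relative to Con and Eci1 rose in Veh. Acadl, the long-chain acyl-CoA dehydrogenase, lay between 6.42 and 8.18 in Con (median 6.92), 5.82 and 7.12 in Veh (median 6.39) and 4.43 and 7.21 in Dex (median 5.46). Of the Dex mice, 8 of 9 were below the Con median and Dex 8 was above it. Acadl fell in Dex relative to Con by 1.44 ± 0.30 on the log2 scale, 2.72-fold (limma, adjusted p = 0.00288). The Veh group lay between the other groups, at -0.76 ± 0.30 from Con (limma, adjusted p = 0.132), and Dex at -0.69 ± 0.30 from Veh (adjusted p = 0.272). Among the settings tried, this was the only call between Dex and Con that was present in each.

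Decr1, the dienoyl-CoA reductase that handles polyunsaturated fatty acids, lay between 7.64 and 8.86 in Con (median 8.27), 7.84 and 8.64 in Veh (median 8.45) and 6.22 and 8.17 in Dex (median 7.89). All 9 Dex mice were below the Con median and below the Veh median, and Dex 2, Dex 4 and Dex 5 were lowest, at 6.22, 6.79 and 6.75. Decr1 fell in Dex relative to Con by 0.76 ± 0.23 (limma, adjusted p = 0.0257). The difference between Dex and Veh was -0.83 ± 0.23 and missed the threshold (limma, adjusted p = 0.0881), while that between Veh and Con was 0.08 ± 0.23 (adjusted p = 0.855). Without Dex 2, Dex 4 and Dex 5, the difference between Dex and Con was -0.29 (limma, adjusted p = 0.351). The call was also lost on leaving out Dex 2, Dex 4, Dex 5 or Con 3 alone (limma, adjusted p = 0.0577, 0.0571, 0.0528 and 0.0524), without Dex 1, Dex 2 and Dex 3 (0.0935), with quantile normalization (0.0725) and in a fit of Dex and Con alone (0.0533).

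Eci1, the isomerase that moves double bonds of unsaturated fatty acids into position, lay between 8.71 and 9.41 in Con (median 9.16), 9.08 and 10.03 in Veh (median 9.70) and 8.73 and 9.73 in Dex (median 9.23). In Veh, 8 of 9 mice were above the Con median, the exception being Veh 9 at 9.08. Eci1 rose in Veh relative to Con by 0.56 ± 0.14, 1.47-fold (limma, adjusted p = 0.0281). In Dex it differed from Veh by -0.40 ± 0.14 (limma, adjusted p = 0.175) and from Con by 0.16 ± 0.14 (adjusted p = 0.447). Hadh, the short-chain hydroxyacyl-CoA dehydrogenase, differed by -0.67 ± 0.19 between Dex and Veh, with 8 of 9 Dex mice below the Veh median (limma, adjusted p = 0.0929). Acadm, the medium-chain dehydrogenase, and Hadhb, the thiolase subunit of the trifunctional protein, differed by 0.62 ± 0.24 and 0.24 ± 0.09 between Veh and Con (limma, adjusted p = 0.114 and 0.115). Acads, the short-chain dehydrogenase, and Acaa2, the mitochondrial thiolase, did not pass in any comparison.

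Electron transfer genes were lower in Dex than in Veh in 3 of 3 cases, with 0 past the test. Etfdh, the dehydrogenase that hands electrons to ubiquinone, ran from 7.38 to 8.25 in Con (median 7.85), 7.17 to 8.34 in Veh (median 7.97) and 6.24 to 8.39 in Dex (median 7.27). Dex 2 and Dex 4 were lowest, at 6.24 and 6.39, while Dex 8 and Dex 6 were at 8.39 and 8.25, near the top of the series. The difference between Dex and Veh was -0.56 ± 0.23 (limma, adjusted p = 0.239). Etfb, the beta subunit of the flavoprotein, covered 9.83 to 10.45 in Con (median 10.21), 10.05 to 10.97 in Veh (median 10.62) and 10.07 to 10.88 in Dex (median 10.49). Of the Veh mice, 8 of 9 were above the Con median, at a difference of 0.41 ± 0.14 (limma, adjusted p = 0.0748). For the alpha subunit Etfa, all 9 Dex mice were below the Veh median, and the difference was -0.28 ± 0.13 (limma, adjusted p = 0.292).

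Of the 7 peroxisomal genes, 6 had a higher mean in Veh than in Con and 7 a lower mean in Dex than in Veh, and Ech1 alone passed. Ech1, a dienoyl-CoA isomerase present in peroxisomes and mitochondria, lay between 9.36 and 10.52 in Con (median 10.10), 10.22 and 11.01 in Veh (median 10.63) and 10.07 and 11.41 in Dex (median 10.36). Every Veh mouse was above the Con median, and Dex 1 was the highest mouse of the series. Ech1 rose in Veh relative to Con by 0.61 ± 0.16, 1.53-fold (limma, adjusted p = 0.0281), and in Dex relative to Con by 0.45 ± 0.16, 1.36-fold (adjusted p = 0.0469). The second of these calls was lost, at an adjusted p of 0.0554 to 0.291, in 9 of the 15 settings tried beside leaving out 1 mouse, and in 16 of the 27 fits that left out 1 mouse. Dex and Veh differed by -0.17 ± 0.16 (limma, adjusted p = 0.618).

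Acaa1b, a peroxisomal thiolase, ran from 11.29 to 12.69 in Con (median 11.98), 12.31 to 13.32 in Veh (median 12.89) and 10.20 to 12.95 in Dex (median 12.19). All 9 Veh mice were above the Con median, whereas Dex 5, Dex 2 and Dex 4 fell below the other Dex mice at 10.20, 10.77 and 11.32. The difference between Veh and Con was 0.91 ± 0.27, just short of the threshold (limma, adjusted p = 0.0502). That between Dex and Veh was -0.97 ± 0.27 and did not pass (limma, adjusted p = 0.0881). The second probe set of Acaa1b gave 0.95 ± 0.36 and -1.08 ± 0.36 (limma, adjusted p = 0.112 and 0.144). Acaa1a, a near copy of the same thiolase, differed by -0.66 ± 0.19 between Dex and Veh, with 8 of 9 Dex mice below the Veh median (limma, adjusted p = 0.102).

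Ehhadh, the bifunctional hydratase and dehydrogenase of peroxisomes, differed by -0.88 ± 0.31 between Dex and Veh (limma, adjusted p = 0.174), with 7 of 9 Dex mice below the Veh median. Hsd17b4, the second such bifunctional enzyme, differed by 0.32 ± 0.12 between Veh and Con (limma, adjusted p = 0.100). Pex11a, which promotes the division of peroxisomes, ran from 8.40 to 9.07 in Con, 8.28 to 10.87 in Veh and 8.20 to 11.25 in Dex, so that its spread was far wider in the latter groups (SD 0.233, 0.772 and 0.98). Veh 5 and Dex 1 held the highest values. Eci2, the peroxisomal isomerase, did not pass in any comparison.

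Acot1, a cytosolic thioesterase that splits acyl-CoA back into fatty acid and coenzyme A, had its highest mean in Dex. It lay between 4.82 and 6.76 in Con (median 5.79), 5.69 and 7.48 in Veh (median 6.51) and 4.90 and 8.37 in Dex (median 6.95). In Dex, 8 of 9 mice were above the Con median, with Dex 1 and Dex 3 highest at 8.37 and 8.21 and Dex 5 at 4.90. Acot1 rose in Dex relative to Con by 1.15 ± 0.34, 2.21-fold (limma, adjusted p = 0.0234), a call lost without Con 1 or without Dex 1 (adjusted p = 0.0506 and 0.0558). The differences of 0.79 ± 0.34 between Veh and Con and 0.36 ± 0.34 between Dex and Veh did not pass (limma, adjusted p = 0.163 and 0.631). Without Dex 1, Dex 2 and Dex 3 the difference between Dex and Con was 0.69 (limma, adjusted p = 0.202), and without Dex 2, Dex 4 and Dex 5 it was 1.65 (adjusted p = 0.00461). Acot1 lies in a cluster of closely similar thioesterase genes, and whether its probe set tells them apart was not tested.

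**Figure D3:**
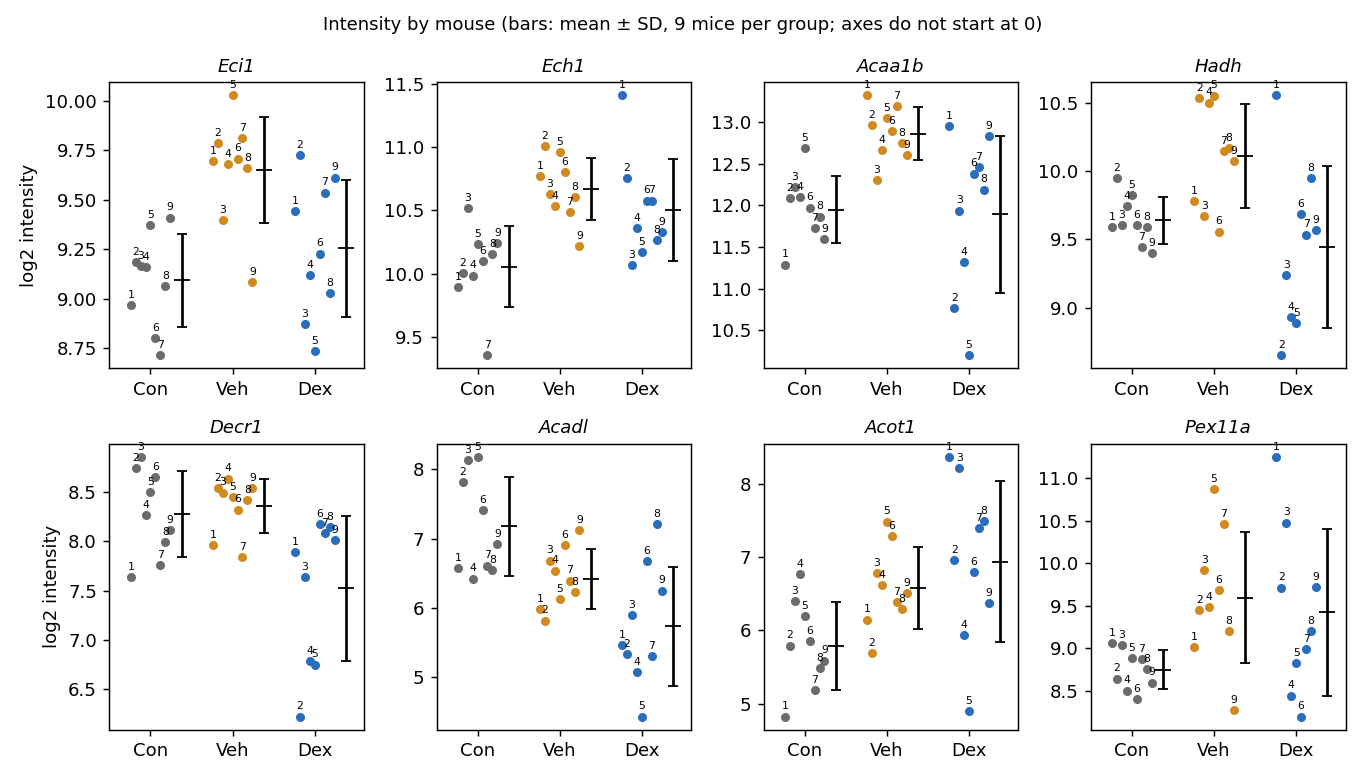
Log2 intensity in every mouse for the 5 genes that passed in any comparison and for Acaa1b, Hadh and Pex11a, with the group mean and SD (n = 9 each); small numerals are mouse numbers, and the axes do not start at 0. Acadl and Decr1 are lowest in Dex, Ech1, Eci1 and Acaa1b stand higher in Veh than in most Con mice, Acot1 climbs to 8.37 in Dex 1, and no panel has groups without overlap.

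For storage, Plin2, the coat protein of lipid droplets, ran from 9.56 to 11.26 in Con (median 10.46), 10.31 to 11.58 in Veh (median 10.92) and 8.89 to 11.20 in Dex (median 10.41). Con 4, Con 5 and Con 6 were the highest Con mice, at 11.01, 11.26 and 10.95, and Dex 3 was the lowest mouse of the series. The difference was 0.59 ± 0.27 between Veh and Con (limma, adjusted p = 0.172) and -0.63 ± 0.27 between Dex and Veh (adjusted p = 0.247). Fabp1, the abundant fatty acid binding protein of liver, differed by -0.33 ± 0.20 between Dex and Veh (limma, adjusted p = 0.440) and by 0.04 ± 0.20 between Veh and Con (adjusted p = 0.913).

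Among the other PPARA targets, Pdk4, the kinase that shuts pyruvate dehydrogenase during fasting, lay between 3.38 and 6.17 in Con (median 4.58), 3.82 and 5.82 in Veh (median 5.09) and 3.52 and 5.03 in Dex (median 4.38). The same 3 Con mice as for Plin2 were highest, Con 4, Con 5 and Con 6, at 5.71, 6.17 and 5.82. All 9 Dex mice were below the Veh median, and the difference between Dex and Veh was -0.67 ± 0.32 (limma, adjusted p = 0.308). Vnn1, a pantetheinase of the liver cell surface, covered 3.0 to 6.33 in Con (median 4.61), 3.31 to 7.29 in Veh (median 5.05) and 1.38 to 6.30 in Dex (median 4.36), with Dex 3 and Dex 4 at the floor of 1.38. Its differences were 0.66 ± 0.61 between Veh and Con (limma, adjusted p = 0.524) and -1.23 ± 0.61 between Dex and Veh (adjusted p = 0.341). Angptl4, a secreted inhibitor of lipoprotein lipase, differed by 0.51 ± 0.26 between Dex and Veh (limma, adjusted p = 0.348), and its 2 other tested probe sets were also higher in Dex than in Veh. Pdk4 and Vnn1 were dim, above the array median in 16 and 13 of 27 arrays.

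Scatter between mice was widest in Dex, for these genes and over all tested probes alike. The SD was largest in Dex for 23 of the 28 genes, with a median SD of 0.341 in Con, 0.389 in Veh and 0.571 in Dex, against 0.375, 0.469 and 0.566 over all tested probes. Within Dex, Dex 5 was the lowest mouse for 8 and Dex 2 for 7 of the 28 genes (28.6% and 25%, against 9.77% and 21.1% of all tested probes). Dex 1 was the highest mouse for 9 (32.1%, against 5.79% of all tested probes) and the lowest for 0. In Veh, Veh 9 was lowest for 10 genes (35.7%, against 7.58%) and Veh 5 highest for 7 (25%, against 5.91%). Con mice were closer together, as over all tested probes. Con 5 was highest for 7 genes (25%, against 8.06%) and Con 1 lowest for 6 (21.4%, against 8.53%).

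**Figure D4:**
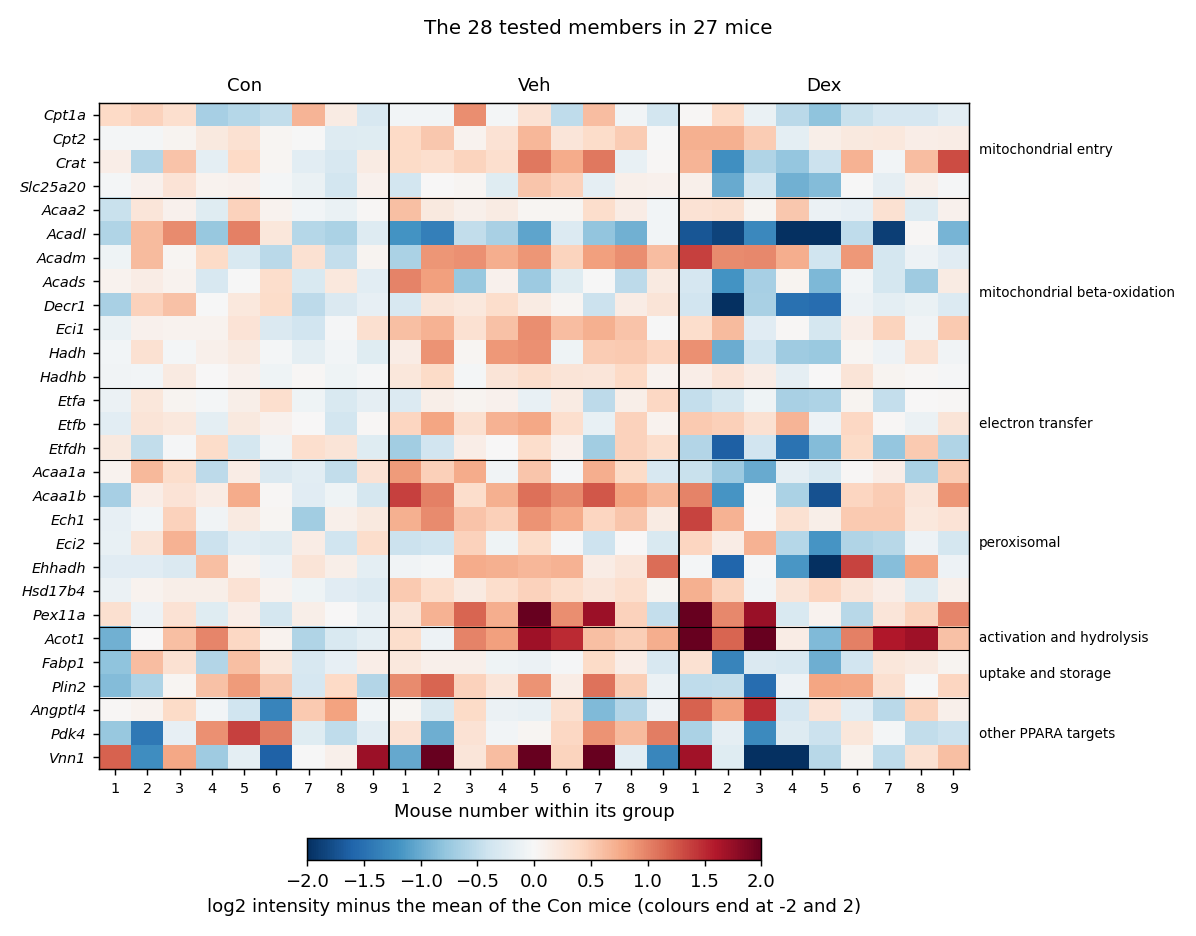
Log2 intensity of each of the 28 genes in every mouse minus the gene's mean in Con, with genes ordered by role and mice by group. Dex 2, Dex 4 and Dex 5 are all below 0 for Slc25a20, Acadl, Hadh, Decr1 and Etfdh. Not every mitochondrial gene is low in these mice, and Dex 2 is above 0 for Cpt1a, Cpt2, Acadm, Hadhb, Acaa2, Eci1 and Etfb. Dex 1 is high for several peroxisomal genes and Acot1, and Veh columns are above 0 for most peroxisomal genes and below 0 for Acadl.

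The wider pathway was read from 77 further genes (regulators, ketone body synthesis, other enzymes of both organelles, and fatty acid supply), of which 50 were on the array and 42 tested. Between Dex and Veh, 31 of 42 (73.8%) were lower (median -0.33), against 53.4% and -0.03 over all probes, and 0 passed. At an unadjusted p under 0.05 in limma, 2 were higher and 14 (33.3%) lower, against 6.82% and 8.34% of all probes. The smallest p-values were those of Abcd3, a peroxisomal fatty acyl-CoA transporter, at -0.94 ± 0.29 (limma, adjusted p = 0.118), Slc27a2, a very long-chain acyl-CoA synthetase, at -0.58 ± 0.19 (adjusted p = 0.127), and Acot8, a peroxisomal thioesterase, at -0.95 ± 0.33 (adjusted p = 0.161). Ppara itself lay between 8.79 and 9.95 in Con (median 9.25), 9.05 and 10.09 in Veh (median 9.83) and 7.39 and 9.95 in Dex (median 9.22); it was named for its role, after its values were seen. Its difference between Dex and Veh was -0.62 (limma, adjusted p = 0.205).

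Between Veh and Con, 1 of the 42 rose (2.38%) and 0 fell, against 1.19% and 2.67% of all probes. In all, 25 (59.5%) were higher, with a median of 0.08, against 30.1% and -0.19 over all probes. At an unadjusted p under 0.05 (limma), 5 (11.9%) were higher and 3 (7.14%) lower, against 5.44% and 18.1% of all probes. The gene that rose was Dbi, the acyl-CoA binding protein, which lay between 11.60 and 12.31 in Con (median 11.81) and 12.24 and 13.01 in Veh (median 12.82). All 9 Veh mice were above the Con median, a rise of 0.88 ± 0.18 (limma, adjusted p = 0.00705). Between Dex and Con, 1 rose (2.38%) and 4 fell (9.52%), against 3.26% and 13.2% of all probes, and 27 (64.3%) were lower with a median of -0.20, against 67.4% and -0.20 over all probes. None of these shares exceeded that of all probes. At an unadjusted p under 0.05 (limma), 6 (14.3%) were higher and 10 (23.8%) lower, against 6.96% and 24.6% of all probes. Fh1, fumarate hydratase of the citric acid cycle, rose by 0.80 ± 0.16 (limma, adjusted p = 0.00171), with Con mice at 8.70 to 9.19 and Dex mice at 9.27 to 10.47. Its groups did not overlap, which held for 1 of the 42 genes (2.38%) and for 0.767% of all probes. The genes that fell were Acsl4, an acyl-CoA synthetase that favours arachidonate, by 1.12 ± 0.30, Pex19, which imports peroxisomal membrane proteins, by 0.92 ± 0.23, Acad9, a mitochondrial acyl-CoA dehydrogenase needed for complex I assembly, by 0.68 ± 0.22, and Cat, peroxisomal catalase, by 0.62 ± 0.19 (limma, adjusted p = 0.0118, 0.00966, 0.0317 and 0.0226).

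Probe sets of a gene did not always move alike. Of the 28 genes, 6 had more than 1 tested probe set: Crat, Acaa1b, Fabp1, Acads, Etfb and Angptl4. The second probe sets of Crat, Fabp1, Acads and Etfb were higher in Dex than in Veh and lower in Veh than in Con, against lower in Dex than in Veh for the brighter ones that stand for these genes. The second probe set of Fabp1 was above the array median in 11 of 27 arrays, and that of Crat also in 11. None of these second probe sets passed the test in any comparison.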

How the data were processed

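Liver RNA of 27 mice was hybridised to 27 Affymetrix arrays, 1 mouse each (per the labels). The authors deposited linear intensities, 1 value for each probe set on each array; which software made them and to what target they were scaled is not given here in any source used. From the values, the mean trimmed by 2% was 100.1 to 100.2 on each array, so no scaling was added. Intensities under the 10th percentile of positive values (2.6) were raised to that value before taking log2. Probes above the median of their array in at least 9 of 27 arrays were tested (6784 of 12488, without 66 control probes). The annotation gave 10855 probes 1 symbol, 396 several and 1237 none; 10839 matched a RefSeq gene table by gene number, which changed 0 symbols. A gene stood for its tested probe with the highest mean log2.

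One limma 3.58.1 fit (R 4.3.3, lmFit, eBayes with a mean trend, 24 residual degrees of freedom, two-sided, Benjamini-Hochberg over 6784 probes, threshold 0.05) gave all 3 comparisons of the groups; it was tested on simulated data. Errors of changes are standard errors. Arrays have no read depth, so their number and the floor limit the precision. The members and lists were chosen with earlier results of these data known. Full statistics are given for members past the threshold and for up to 3 members of each role with the smallest p in Dex vs Veh and Veh vs Con; values per group for those past the threshold and the first of each role, with Pex11a, Ppara and single mice named after their values were seen; other pathway genes if past the threshold or among the 3 smallest p. Alternatives were another normalization, floor, filter, design, covariate or probe rule, leaving out each mouse, and leaving out sets of mice that stood apart. The labels do not say whether mice of the same number were paired, and the main fit did not pair them. Correlations of same-numbered mice were -0.195 to 0.187, which cannot show how the mice were matched.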

Additional observations from a re-analysis of the deposited data

Results flagged for a closer look

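Of 84 combinations of a tested gene and a group of 9 mice, 1 held a mouse far from the others. This is a smaller share than the 1 in 20 or so that chance gives. In Veh, the log2 intensity of Acadm, the medium-chain acyl-CoA dehydrogenase, was 9.62 in Veh 1, and the next lowest Veh mouse was at 10.7. The gap was 0.689 of the range of the group, against a critical value of 0.493.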

How the results depend on the processing

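The median differences of the 28 genes kept their sign in Dex vs Veh (-0.41 to -0.31) and in Veh vs Con (0.30 to 0.38) when any 1 mouse was left out, and that of Dex vs Con ran from -0.22 to -0.037. The settings that moved a result were as follows, and the cause was not tested. Between Veh and Con (2 genes called), the count was 0 with quantile normalization, with the beta-actin or the Gapdh ratio as covariate and without Veh 2, Veh 4, Veh 5 and Veh 7, 4 without Dex 1, Dex 2 and Dex 3, 9 in a fit of Veh and Con alone and 10 with array weights. Between Dex and Con (4 called), it was 2 with quantile normalization, in a fit of Dex and Con alone and without Dex 2, Dex 4 and Dex 5, and 1 without Dex 1, Dex 2 and Dex 3. Leaving out 1 mouse gave 0 to 3 calls in Dex vs Veh, 0 to 5 between Veh and Con, and 2 to 5 between Dex and Con. The median of the peroxisomal genes in Dex vs Veh was -0.47 without Dex 1, Dex 2 and Dex 3. The median of the mitochondrial genes without Dex 2, Dex 4 and Dex 5, a choice made after seeing the data, was -0.20 in Dex vs Veh and 0.052 in Dex vs Con. The peroxisomal median ran from -0.40 to -0.13 (Dex vs Veh) and from -0.19 to 0.16 (Dex vs Con) on leaving out 1 mouse. Quantile normalization shifted the median of all probes from -0.19 to -0.02 (Veh vs Con) and from -0.20 to -0.04 (Dex vs Con), and that of the 28 genes from 0.33 to 0.18 and from -0.13 to -0.21. The latter was -0.046 with the stricter filter, -0.064 without Dex 1, Dex 2 and Dex 3 and -0.073 with the probe of smallest within-group variance, which put the mitochondrial median at -0.090; the peroxisomal median in Dex vs Con was -0.14 with quantile normalization, -0.13 and -0.029 with the Gapdh and beta-actin covariates and -0.012 with array weights. With the replicate block, 0 genes were called in Dex vs Veh, 2 between Veh and Con, and 3 between Dex and Con, where Ech1 was lost (0.45, limma adjusted p = 0.0606); between 1 and 3 of the 9 mice per comparison correlated best with their own number.

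Among the genes whose differences are given, the signs below turned. In Dex vs Veh, Etfb was at 0.020 with the beta-actin covariate and Acot1 at -0.10 without Dex 1, Dex 2 and Dex 3. In Veh vs Con, quantile normalization put Cpt1a at -0.10, Fabp1 at -0.021, Etfdh at 0.042 and Angptl4 at 0.033. The beta-actin covariate put Fabp1 at -0.15, Decr1 at -0.057, Etfdh at 0.11 and Angptl4 at 0.063, and the Gapdh covariate put Cpt1a at -0.0055 and Etfdh at 0.034. Array weights put Etfa at 0.012. Without Veh 2, Veh 4, Veh 5 and Veh 7, Cpt1a was at -0.011, Vnn1 at -0.37, Etfa at 0.095, Etfdh at 0.067 and Angptl4 at 0.011. Leaving out 1 mouse, Veh vs Con ranged from -0.019 to 0.17 for Cpt1a, -0.056 to 0.12 for Fabp1, -0.0025 to 0.15 for Decr1, -0.053 to 0.064 for Etfa and -0.11 to 0.039 for Etfdh. Changes of dim genes are limited by the floor.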
